A study of Homo sapiens with 2 samples.

Results

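The tubulins, myosins, tropomyosins and actins are the genes that build the microtubules and actin filaments of a cell and the motors that pull on them. The rule that picks them reads symbols and no values: the alpha- to epsilon-tubulins, the numbered myosins, the myosin heavy and light chains, the tropomyosins, the alpha-actinins, 4 actins, the transgelins and the calponins. The rule gave 89 of the 22595 gene symbols in the tables. Of these 89, 61 were measured, meaning at least 20 counts over both libraries, and 41 had at least 10 CPM (counts per 1e6 of the effective library size) in either library. Symbols are given as the tables spell them, so that TUBB2C stands for the gene now called TUBB4B, CTGF for CCN2 and CYR61 for CCN1.

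The study measured RNA from 786-O, an established line from a human clear cell kidney carcinoma that is known to lack a working VHL gene, to ask how gene expression responds to loss of glucose. The 2 groups shared the line and the Trizol extraction and differed in the medium, 25 mM glucose in one and 0 mM in the other. Each group held 1 library, of 27317598 counts with glucose and 31345853 without, so that there is no replicate check and no p-value, and the culture and the medium cannot be told apart. How long the cells went without glucose is not stated in the labels. The samples also carried short codes, LucF for the culture in glucose and LucG for the other, which the labels do not explain, and any further difference they mark cannot be told apart from glucose.

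In place of a test, a gene was counted as higher or lower without glucose when the exact 95% interval of its ratio, from the counts of both libraries, lay wholly beyond 2-fold, or, for smaller differences of abundant genes, wholly beyond 1.5-fold. These intervals cover counting error only. The words higher and lower are kept for genes past one of these rules, and all other genes are given by their values. Log2 ratios are the library without glucose over the library with glucose, scaled by effective library size.

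Microtubules are hollow polymers of alpha- and beta-tubulin dimers, and gamma-tubulin seeds them at centrosomes, while delta- and epsilon-tubulin serve centrioles. Actin filaments are polymers of actin monomers that tropomyosins coat, alpha-actinins cross-link and myosins use as tracks. Nonmuscle cells use beta-actin (ACTB) and gamma-actin (ACTG1), which differ in a few residues, and a bipolar myosin II built from a heavy chain, a regulatory light chain and an essential light chain. Tubulin messages are known to be controlled after transcription: when free tubulin dimers are abundant, the ribosome-associated factor TTC5 recognises the first residues of new alpha- and beta-tubulin chains and their messages are degraded. Many actin-binding genes are classic targets of the serum response factor SRF, which binds a DNA element called the CArG box. Its MRTF cofactors sense free actin monomer.

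The start of the coding sequence is shown for the tubulins because in alpha- and beta-tubulins it encodes the stretch that TTC5 reads. TUBG1, TUBD1 and TUBE1, which are neither, are shown for comparison only. The first 30 coding bases are from GENCODE release 29 transcripts matched by their RefSeq accession, 5′ to 3′, and the capitals mark the first 4 codons.
TUBA1A, TUBA1B and TUBA1C: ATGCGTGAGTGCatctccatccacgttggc
TUBA4A: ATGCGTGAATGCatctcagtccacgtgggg
TUBA8: ATGCGGGAATGCatatcagtccacgtgggc
TUBB: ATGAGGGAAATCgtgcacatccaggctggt
TUBB2C: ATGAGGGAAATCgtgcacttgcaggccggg
TUBB6: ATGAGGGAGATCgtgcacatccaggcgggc
TUBB3: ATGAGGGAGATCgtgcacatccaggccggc
TUBB2A: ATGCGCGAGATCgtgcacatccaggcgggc
TUBG1: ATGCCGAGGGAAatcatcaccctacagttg
TUBD1: ATGTCAATTGTAacagtgcaacttggtcag
TUBE1: ATGACCCAGTCGgtggtcgtacaggtcggc
The 3 TUBA1 genes were identical over all 30 bases, TUBB and TUBB2C over the first 12, and TUBB6 and TUBB3 over the first 12. Over their whole coding sequences TUBA1A and TUBA1B were identical at 97.19% of positions and TUBB2A and TUBB2B at 98.2%. Reads from such copies can be split or lost in counting, and the way the authors counted them is not given. In windows of 50 bases, 87.1% of the TUBA1B transcript, 51.8% of TUBA1A, 40.1% of TUBA1C, 30.8% of TUBB and 14.6% of TUBB2C occurred also in transcripts of other genes in GENCODE, pseudogenes and read-through transcripts included. The values of single TUBA1 genes, of TUBB2A and of TUBB2B are therefore uncertain, and the sums over the alpha- and beta-tubulins are given beside them.

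As a whole the module took a smaller share of the RNA without glucose. Its genes held 1.642% of all counts with glucose (exact 95% binomial interval 1.6372 to 1.6468) and 1.233% without (1.2293 to 1.2371). No member was higher by the 2-fold rule and 4 of the 61 measured were lower, against 3.75% higher and 6.2% lower of all 14240 measured genes. By the 1.5-fold rule 2 members, TUBA8 and TUBE1, were higher and 12 were lower, against 10.2% and 12.6% of all measured genes. The 12 were TUBA1A, TUBA1B, TUBA1C, TUBA4B, TUBB, TUBB2C, TUBB6, TUBD1, MYH10, MYH13, MYO10 and ACTB, so that 8 of them are tubulins. The count of members lower by the 2-fold rule was thus near the share over all genes, while the median of the members lay below 0, at -0.28 on the log2 scale against 0.01 for all measured genes, with 21 members above 0 and 40 below.

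The same held for the 41 members with at least 10 CPM. None was higher by the 2-fold rule and 3 were lower (TUBA1B, TUBD1 and MYH10), against 3.61% and 6.57% of the 10062 genes at that level. By the 1.5-fold rule 1 was higher and 10 were lower, against 11.1% and 13.3%. Their median was -0.45, against 0.02 for all genes at that level, and 31 of the 41 had a ratio below 0. The members were also deeply counted, with a median of 3248 counts over both libraries against 1476 for all measured genes. At 20 counts divided equally the interval reaches 1.42 log2 units to either side.

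**Figure D1:**
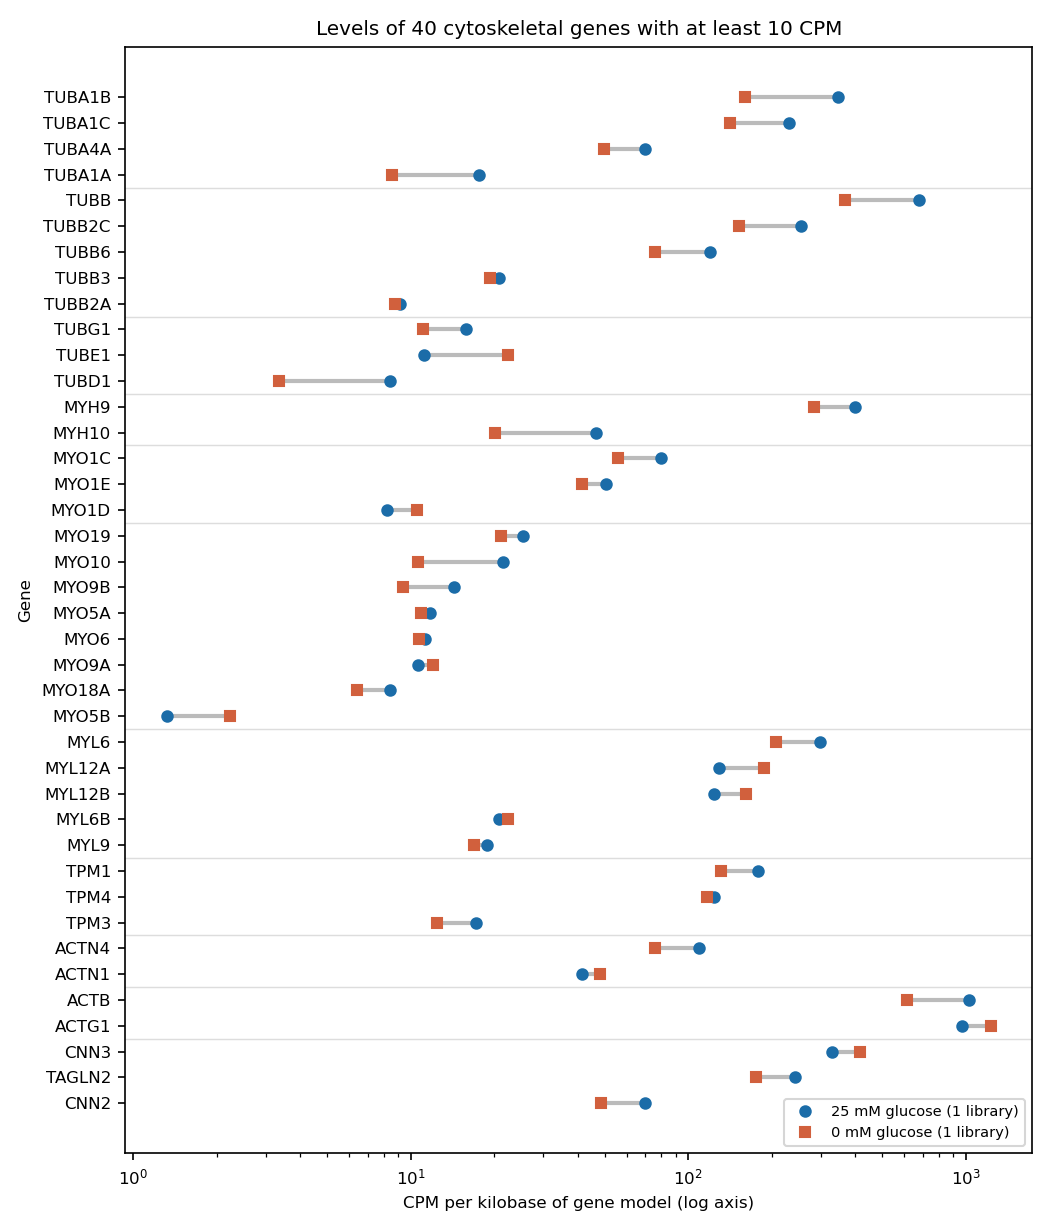
CPM per kilobase of gene model (log axis) of 40 members with at least 10 CPM, with 1 point per library: circles are 25 mM glucose, squares 0 mM, and thin lines separate the role groups. ACTB, ACTG1, TUBB and MYH9 were among the highest genes in both libraries, and for 30 of the 40 the square lies to the left of the circle.

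Most measured alpha-tubulins were lower without glucose by the 1.5-fold rule. Of 7 listed genes 6 were measured, with a median log2 ratio of -0.87. By the 2-fold rule 2 were lower, and by the 1.5-fold rule 4 were lower and 1 was higher. Over all measured genes 6.2% were lower and 3.75% higher by the 2-fold rule, and 12.6% and 10.2% by the 1.5-fold rule. The 4 lower genes are the 3 TUBA1 genes, whose reads may be split between them, and the scarce TUBA4B, so they are not separate counts. TUBA1B, the most abundant alpha-tubulin, had 16813 counts with glucose and 8585 without, or 603.7 and 279.2 CPM. It was 2.16-fold lower without glucose, with an interval of 2.11 to 2.22. TUBA1C, another broadly expressed alpha-tubulin, had 356.1 and 220.0 CPM and was 1.62-fold lower (1.57 to 1.67). TUBA1A, the alpha-tubulin known for its role in developing neurons, had 29.2 and 14.2 CPM and was 2.06-fold lower, but its interval of 1.83 to 2.32 put it past the 1.5-fold rule alone, although it passed the 2-fold rule less the median of its length class (log2 ratio -1.19, interval -1.36 to -1.02). These 3 genes lie within 1 stretch of chromosome 12 in hg19, TUBA1B from 49521567 to 49525304 and TUBA1A from 49578583 to 49582861 on the minus strand and TUBA1C from 49658865 to 49667113 on the plus strand.

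The other alpha-tubulins lie elsewhere. TUBA4A, on chromosome 2, had 103.3 CPM with glucose and 73.4 without, a log2 ratio of -0.49 that did not pass the 1.5-fold rule. TUBA4B, a noncoding RefSeq entry on the opposite strand that shares 673 bases of span with TUBA4A, had 40 counts with glucose and 5 without and was 8.83-fold lower (3.49 to 28.7). Without knowledge of the strand used in counting, reads from transcript stretches that both genes share cannot be told apart. Of the 50-base windows of TUBA4B, 13.1% also stood in TUBA4A, on either strand. TUBA8, on chromosome 22, had 32 and 92 counts, or 1.15 and 2.99 CPM, and was 2.60-fold higher by the 1.5-fold rule (1.73 to 4.03), which it left with 1 CPM added (log2 ratio 0.89). In this gene 66.1% of the 50-base windows also stood in transcripts of its neighbour PEX26. In sum the alpha-tubulins had 1095 CPM with glucose and 589.9 without, a log2 ratio of -0.89 (-0.92 to -0.87).

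The beta-tubulins gave a like sum from a different spread. Their 6 measured members of 9 listed had 2366 CPM in sum with glucose and 1347 without, a log2 ratio of -0.81 (-0.83 to -0.80). None passed the 2-fold rule, 3 were lower by the 1.5-fold rule and the median was -0.38, so the abundant isotypes and the scarce ones differed. Of all measured genes 6.2% were lower by the 2-fold rule and 12.6% by the 1.5-fold rule. TUBB, the most abundant tubulin, on chromosome 6 from 30688157 to 30693195, had 46982 counts with glucose and 28108 without, or 1687 and 914.2 CPM. It was 1.85-fold lower, with an interval of 1.82 to 1.87. TUBB2C, a broadly expressed isotype, had 404.0 and 241.1 CPM and was 1.68-fold lower (1.63 to 1.73), and TUBB6, another broadly expressed isotype, had 217.6 and 138.0 CPM and was 1.58-fold lower (1.52 to 1.64). TUBB6 lost its place past the 1.5-fold rule when library sizes were scaled by the upper quartile (log2 ratio -0.62) or without small RNA genes (-0.64).

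The less abundant beta-tubulins had ratios nearer 1. TUBB3, known as the neuronal isotype and also expressed in many carcinoma lines, had 41.5 CPM with glucose and 38.5 without (log2 ratio -0.11, interval -0.23 to 0.01). TUBB2A had 14.8 and 14.2 CPM (-0.06, interval -0.25 to 0.14), and TUBB2B had 18 and 19 counts. The intervals of these 3 genes lay above those of TUBB, TUBB2C and TUBB6, except that the wide one of TUBB2B reached from -1.07 to 0.95. TUBB3 shares 89.4% of its windows with a read-through transcript, so that its counts depend on how such transcripts were treated.

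Together the alpha- and beta-tubulins of the dimer took 0.353% of all counts with glucose and 0.190% without. Their summed level per kilobase of gene model, the scale on which genes can be compared, was 1750 CPM per kb with glucose and 987.1 without. On that scale TUBB was 1.97 times TUBA1B with glucose and 2.31 times without. Within the alpha-tubulins the share of TUBA1B was 52.0% with glucose and 44.2% without, that of TUBA1C 34.6% and 39.3%, and that of TUBA4A 10.5% and 13.8%. Within the beta-tubulins TUBB took 62.7% and 59.0%, TUBB2C 23.5% and 24.3%, TUBB6 11.1% and 12.2%, and TUBB3 1.91% and 3.07%.

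The tubulins outside the dimer went apart. Of the 4 genes, all measured, 1 was lower by the 2-fold rule and 1 higher by the 1.5-fold rule. Over all measured genes these shares were 6.2% and 10.2%. The sum of the 4 genes was nearly level at 82.2 CPM with glucose and 87.1 without. TUBD1, the gene of delta-tubulin, which serves the centriole's triplet microtubules, had 607 counts with glucose and 267 without, or 21.8 and 8.68 CPM. It was 2.51-fold lower, with an interval of 2.17 to 2.91. TUBE1, the gene of epsilon-tubulin, which acts in the same process, had 711 and 1571 counts, or 25.5 and 51.1 CPM, and was 2.002-fold higher (1.83 to 2.19), past the 1.5-fold rule alone. Per kilobase TUBE1 was 1.33 times TUBD1 with glucose (interval 1.19 to 1.48) and 6.67 times without (5.86 to 7.63). TUBG1, the main gamma-tubulin gene, had 30.8 and 21.4 CPM (log2 ratio -0.53), and its near copy TUBG2 had 114 and 184 counts (0.55), with neither past a rule and about 30.3% of the TUBG1 windows found elsewhere, mostly in TUBG2.

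**Figure D2:**
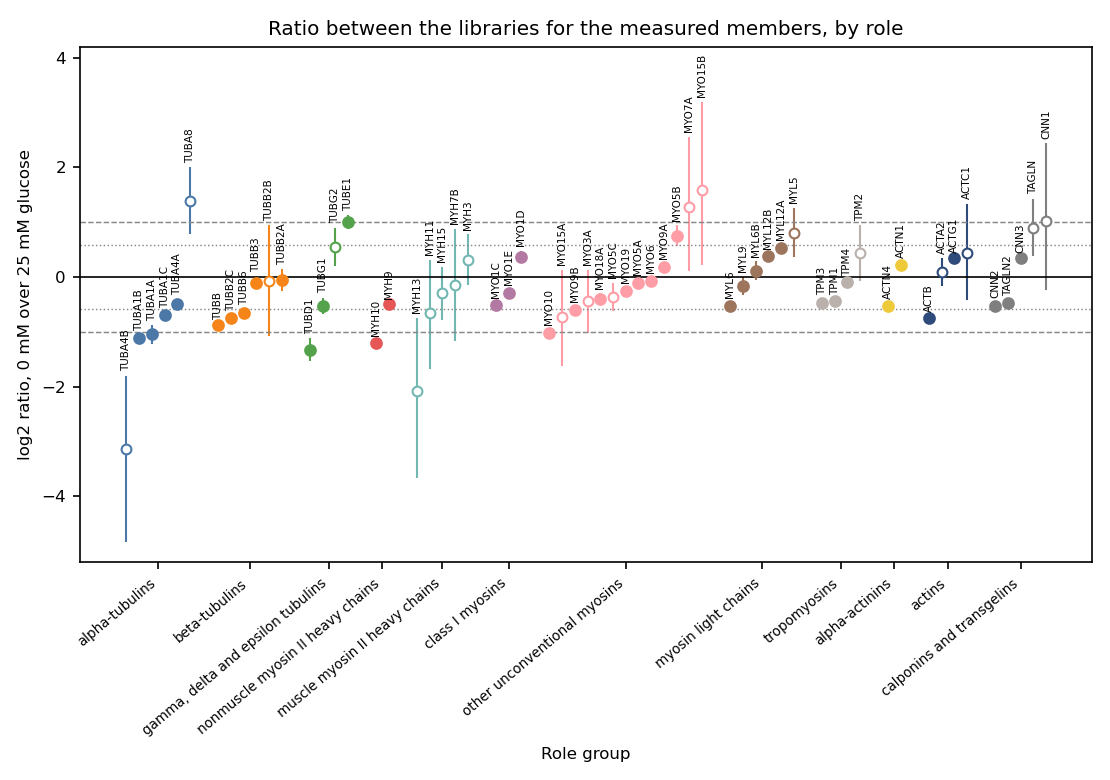
Log2 ratio of 60 measured members, 0 mM over 25 mM glucose, by role group, with bars for the 95% counting intervals. Filled points had at least 10 CPM in either library and open points less, the dashed lines mark 2-fold and the dotted lines 1.5-fold, and no bar lies wholly above the upper dashed line.

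Among the myosins the heavy chains of nonmuscle myosin II, the motor of contraction and of the cleavage furrow, differed in size of change. MYH9, the IIA heavy chain, on chromosome 22 from 36677323 to 36784063, had 83190 counts with glucose and 65431 without, the most of any member with glucose. This came to 2987 and 2128 CPM, a log2 ratio of -0.49 (-0.50 to -0.47) that did not reach the 1.5-fold rule. MYH10, the IIB heavy chain, on chromosome 17 from 8377530 to 8534036, had 9780 and 4681 counts, or 351.1 and 152.3 CPM. It was 2.31-fold lower, with an interval of 2.23 to 2.39. Less the median of its length class its log2 ratio was -0.99 (-1.04 to -0.94), which no longer passed the 2-fold rule but passed the 1.5-fold rule. Per kilobase MYH10 was 0.116 of MYH9 with glucose and 0.0705 without, so that MYH9 made up 89.6% and 93.4% of the group. MYH14, the IIC heavy chain, had 9 and 6 counts and was not measured.

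The light chains of myosin had values on both sides of 0. Of 12 genes 6 were measured, none passed a rule, and the sum was 569.4 CPM with glucose and 617.4 without. Their median log2 ratio was 0.246, and 0.010 less the medians of their length classes. MYL12A and MYL12B, adjacent genes of the regulatory light chain of nonmuscle myosin II, had 157.9 and 229.3 CPM and 145.3 and 188.9 CPM. Their log2 ratios were 0.54 (0.48 to 0.59) and 0.38 (0.32 to 0.44), and 0.37 and 0.21 less the median of their length class. MYL9, the regulatory light chain of smooth muscle that is also found in nonmuscle cells, had 22.3 and 19.97 CPM (-0.16). MYL6, the essential light chain, had 223.4 and 155.4 CPM (-0.52, interval -0.58 to -0.47), a ratio close to that of MYH9. Less the medians of their length classes the ratios lay apart, at -0.83 for MYL6 and -0.28 for MYH9. MYL6B, the neighbour of MYL6, had 17.8 and 19.3 CPM (0.11, and -0.19 less the median of its length class). The share of MYL6 in the light chains per kilobase was 50.2% with glucose and 34.5% without. MYL5 had 65 and 126 counts.

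The unconventional myosins carry cargo or tie membranes to actin, and most had ratios below 0. The class I myosins, single-headed motors that bind membranes, had no member past a rule among the 4 measured of 8. MYO1C, which is known for the insertion of glucose transporters in fat cells, had 402.5 and 282.5 CPM (log2 ratio -0.51), and MYO1E had 237.0 and 194.7 CPM (-0.28). MYO1D had 42.2 and 54.5 CPM (0.37, interval 0.26 to 0.48), the other side of 0 from MYO1C and MYO1E.

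Of the other unconventional myosins, 13 of 17 were measured and 1 passed a rule, the 1.5-fold rule on the lower side. Of all measured genes 12.6% were lower by that rule. MYO10, the motor of filopodial tips, had 6824 counts with glucose and 3709 without, or 245.0 and 120.6 CPM, and was 2.03-fold lower (1.95 to 2.11), past the 1.5-fold rule alone. Scaled by total counts it also passed the 2-fold rule (log2 ratio -1.08). MYO9B had 108.9 and 71.3 CPM (log2 ratio -0.61, interval -0.69 to -0.53), while its relative MYO9A had 91.9 and 104.0 CPM (0.18). MYO18A had 63.5 and 48.1 CPM (-0.40) and MYO19, a motor on mitochondria, 120.4 and 100.2 CPM (-0.26). MYO5A and MYO6, motors for vesicles that run in opposite directions on actin, had 142.4 and 132.3 CPM (-0.11) and 97.0 and 92.2 CPM (-0.07), and both ratios turned to above 0 less the median of their length class (0.11 and 0.14).

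MYO5B, the motor of recycling endosomes in epithelia, had 348 counts with glucose and 649 without, or 12.5 and 21.1 CPM, a log2 ratio of 0.76 (0.57 to 0.95). Of its 40 exons, 8 had more than 10 reads with glucose and 28 without, per the tables' own exon column. That column applies a fixed cut to reads that are not scaled for library size. It is thus no measure of the size of the difference or of isoform use. Its ratio came past the 1.5-fold rule with upper-quartile scaling (0.79) and less the median of its length class (0.97). MYO5C had 277 and 238 counts. The scarce myosins MYO3A, MYO7A, MYO15A and MYO15B had 6 to 59 counts in a library, and none of them passed a rule.

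The muscle myosin heavy chains were near background. Of 12 listed, 5 were measured, and the group as a whole had 235 counts with glucose and 223 without. MYH3 and MYH15 led with 70 and 96 and with 78 and 70 counts, and MYH7B and MYH11 had 16 to 23 counts in each library. MYH13 had 23 and 6 counts and was 4.23-fold lower by the 1.5-fold rule (1.68 to 12.7), which it left with 1 CPM added (log2 ratio -0.61) and less the median of its length class (-1.92). None of these levels reached 4 CPM. MYH11 overlaps NDE1 on the opposite strand over 23216 bases, so that reads of NDE1 may be counted there.

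The 2 cytoplasmic actins, the most abundant members per kilobase, gave different ratios. ACTB, on chromosome 7 from 5566779 to 5570232, had 51739 counts with glucose and 34160 without, or 1858 and 1111 CPM. It was 1.67-fold lower without glucose, with an interval of 1.65 to 1.70. ACTG1, on chromosome 17 from 79476999 to 79479827, had 51809 and 72449 counts, or 1860 and 2356 CPM, a log2 ratio of 0.34 (0.33 to 0.36) that did not reach the 1.5-fold rule. With glucose the counts of both genes were nearly equal, and without glucose ACTG1 had more than ACTB: per kilobase ACTG1 was 0.945 of ACTB with glucose (0.934 to 0.957) and 2.002 times ACTB without (1.98 to 2.03). The summed actins had 2006 CPM per kb with glucose and 1852 without, with ACTG1 at 48.5% and 66.5% of them. The coding sequences of both were identical at 91.29% of positions, and 10.9% of the ACTB windows and 4.03% of the ACTG1 windows occurred in transcripts of other genes.

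ACTB and ACTG1 ratios kept their sides of 0 under each scaling, filter and length setting tried. ACTA2, smooth muscle alpha-actin, had 236 and 276 counts, or 8.47 and 8.98 CPM (0.08, and -0.07 less the median of its length class), and overlaps FAS on the opposite strand over 859 bases. ACTC1, cardiac actin, had 20 and 30 counts.

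**Figure D3:**
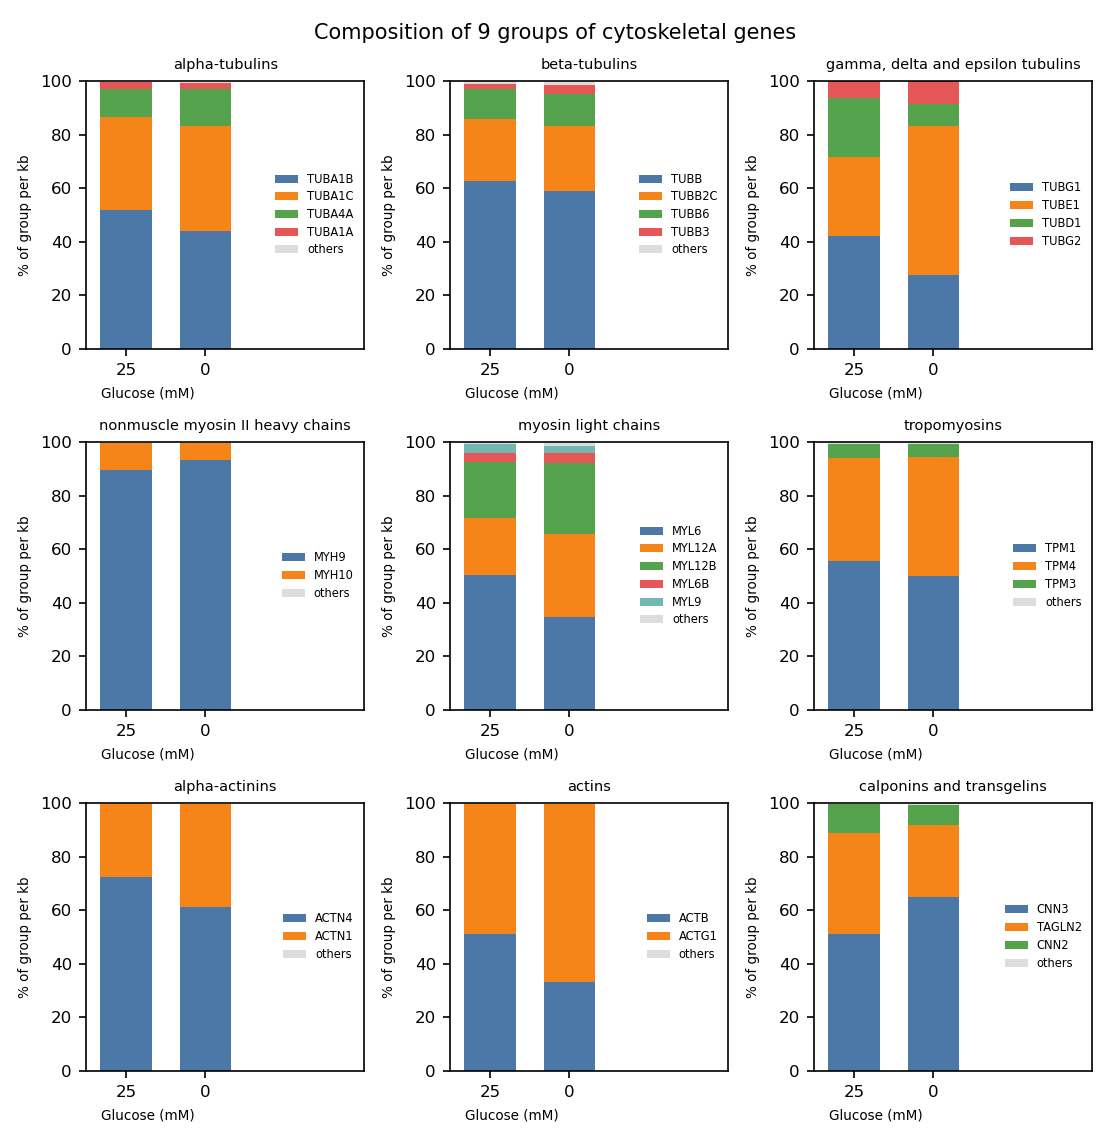
Share of each gene in its role group's summed CPM per kilobase, in percent, in the library with 25 mM glucose (left bar) and with 0 mM (right bar), for 9 groups; genes that stay near or under 1% are pooled as others. ACTG1 took 48.5% of the actins with glucose and 66.5% without, and TUBE1 29.6% and 55.8% of the gamma-, delta- and epsilon-tubulins.

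The tropomyosins, which decide which myosins can use a filament, had no member past a rule. TPM1 had 596.4 CPM with glucose and 438.0 without (log2 ratio -0.45), TPM3 191.1 and 138.2 (-0.47) and TPM4 371.3 and 348.3 (-0.09, interval -0.13 to -0.05), while TPM2 had 57 and 85 counts. Each of these genes makes several isoforms, and the tables give 1 value per gene. TPM4 held 38.6% of the tropomyosins per kilobase with glucose and 44.4% without.

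Pairs among the cross-linkers and filament binders also differed within families. ACTN4, an alpha-actinin of the podocyte and of motile cancer cells, had 422.3 and 293.1 CPM (log2 ratio -0.53, interval -0.57 to -0.49), and ACTN1, the alpha-actinin of stress fibres and adhesions, had 155.5 and 180.6 CPM (0.22, interval 0.16 to 0.27). Per kilobase ACTN1 was 0.378 of ACTN4 with glucose and 0.633 without. CNN3, the acidic calponin, had 679.6 and 860.1 CPM (0.34, interval 0.31 to 0.37), and CNN2, a calponin of nonmuscle cells, had 171.0 and 118.8 CPM (-0.53, interval -0.59 to -0.46). Per kilobase CNN3 was 4.73 times CNN2 with glucose and 8.62 times without. TAGLN2, a transgelin of nonmuscle cells, had 328.0 and 237.0 CPM (-0.47). TAGLN, the smooth muscle transgelin, had 48 and 99 counts and CNN1 8 and 18 counts, and neither passed a rule. None of these 7 genes passed the 1.5-fold rule, so that the shifts of the pairs are given as values.

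The CArG box was looked for in the promoters because several members are known SRF targets. It is CC and GG on either side of a short run of A and T, and was searched on both strands. RefSeq promoters on GRCh38.p14, from 250 bases before to 50 after a start, were matched for 72 of the 89 members, 105 promoters in all. ACTB, TAGLN, MYL9 and MYH11 were among the members with no matched promoter, so that the box was not looked for in them. ACTA2, CNN1 and TPM1, which are in the SRF and MRTF list below, were searched and held no box. A CArG box stood in 9 of these 105 (8.57%), 1 each in 9 members, against 1.29% of all 35116 promoters. The motif CCAAT stood in 36.2% of member promoters against 34.6% of all, and TATAAA in 12.4% against 11.5%, on both strands. A CArG box can hold either of these motifs, so that the matches overlap in part. For 5 of the measured members with the box, stretches of 50 bases are shown in the direction of the gene, with the box in capitals.
ACTG1, chr17:81512864-81512913, minus strand: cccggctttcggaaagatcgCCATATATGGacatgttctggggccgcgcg
ACTC1, chr15:34795629-34795678, minus strand: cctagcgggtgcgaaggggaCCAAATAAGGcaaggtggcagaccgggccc
ACTN1, chr14:68977708-68977757, minus strand: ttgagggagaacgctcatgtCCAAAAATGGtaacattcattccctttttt
TPM4, chr19:16067345-16067394, plus strand: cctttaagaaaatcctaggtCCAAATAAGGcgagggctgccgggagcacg
CNN2, chr19:1026499-1026548, plus strand: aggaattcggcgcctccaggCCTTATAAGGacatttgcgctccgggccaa
The boxes began 94 bases before the start in ACTG1, 109 in ACTC1, 171 in ACTN1, 173 in TPM4 and 89 in CNN2. ACTC1, ACTN1 and TPM4 also have other listed starts without a box, and which start these cells use was not tested. MYO1E and TUBG2 also held one, 31 and 194 bases before the start. The log2 ratios of these 7 genes ran from -0.53 for CNN2 to 0.55 for TUBG2 and none passed a rule. A match is a run of letters and no measure of binding.

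The genes around SRF gave no single direction. Of the 17 listed SRF and MRTF pathway genes, 7 are members, and 3 were higher and 1 lower by the 2-fold rule, with a median of 0.08. Over all measured genes the shares were 3.75% higher and 6.2% lower. By the 1.5-fold rule 3 of the 17 were higher and 3 lower, against 10.2% and 12.6%. ANKRD1, a muscle ankyrin repeat protein and a widely used YAP target, had 8.94 CPM with glucose and 78.4 without (log2 ratio 3.13). CYR61 and CTGF, secreted matrix proteins that are targets of SRF and of YAP, had 56.7 and 175.8 CPM (1.63) and 8.72 and 34.1 CPM (1.97). VCL, which links integrin adhesions to actin, had 635.3 and 286.7 CPM and was lower (-1.15). None of the 7 members in the list was higher by either rule and ACTB alone was lower by the 1.5-fold rule.

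Genes that regulate actin and myosin were mostly within 2-fold, with single exceptions on the lower side. Of all measured genes 3.75% were higher and 6.2% lower by the 2-fold rule, and 10.2% and 12.6% by the 1.5-fold rule. A single lower gene in a list of 11 to 17 is thus near the share by the 2-fold rule. Of the 15 genes of monomer actin and filament turnover 1 was lower by the 2-fold rule, 2 by the 1.5-fold rule and none higher. The gene past the 2-fold rule was TWF2, a twinfilin that binds actin monomers, with 71.9 and 30.5 CPM (-1.24). No gene among the 13 of the Arp2/3 complex and its activators passed the 2-fold or the 1.5-fold rule, and their median was -0.14. Of the 11 formins and elongation factors 1 was lower by the 2-fold rule, FHOD1, a formin of stress fibres (28.7 and 9.43 CPM, -1.61), and 4 by the 1.5-fold rule, with a median of -0.49. Of the 17 measured capping and cross-linking genes FSCN1, the fascin that bundles filopodia, was lower by the 2-fold rule (134.1 and 52.7 CPM, -1.35). By the 1.5-fold rule 2 of the 17 were lower and none higher.

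The regulators of myosin II had 2 of 15 lower by the 2-fold rule and none higher, against 6.2% and 3.75% of all measured genes. By the 1.5-fold rule 3 were lower and none higher, against 12.6% and 10.2%. CIT, the citron kinase of the cleavage furrow and midbody, had 141.6 CPM with glucose and 42.1 without (-1.75), and MYLK, the myosin light chain kinase, had 155.8 and 64.7 CPM (-1.27). Of the 15 focal adhesion genes 3 were lower by the 2-fold rule: VCL, TNS1, with 13.6 and 4.13 CPM (-1.72), and TNS3, with 201.1 and 65.6 CPM (-1.61). TNS1 and TNS3 encode tensins, which couple integrins to actin. By the 1.5-fold rule 1 of the 15 focal adhesion genes was higher and 3 were lower.

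On the microtubule side the list of tubulin folding and autoregulation, with the CCT chaperonin, prefoldin and the tubulin cofactors, had 1 of 20 genes higher by the 2-fold rule and none lower. That gene was PFDN2, a prefoldin subunit that hands new chains to the chaperonin, with 32.1 and 121.4 CPM (1.92). By the 1.5-fold rule 3 of the 20 were higher and 1 was lower. Of all measured genes 3.75% were higher and 6.2% lower by the 2-fold rule, and 10.2% and 12.6% by the 1.5-fold rule. TTC5, named for its part in tubulin autoregulation after its values were seen, had 18.8 and 17.4 CPM (-0.12). Of the 17 tubulin modifying enzymes AGTPBP1, a deglutamylase, was higher by the 2-fold rule (100.4 and 214.5 CPM, 1.10). By the 1.5-fold rule 2 of these enzymes were higher and 1 was lower. Of the 14 genes of the gamma-tubulin ring complex and nucleation 1 was lower by the 2-fold rule, TPX2, a spindle assembly factor (464.1 and 126.0 CPM, -1.88), and 5 by the 1.5-fold rule. Of the 18 measured microtubule binding genes STMN1, which sequesters tubulin dimers, was lower by the 2-fold rule (400.4 and 138.9 CPM, -1.53). By the 1.5-fold rule 1 of the 18 was higher and STMN1 alone was lower.

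**Figure D4:**
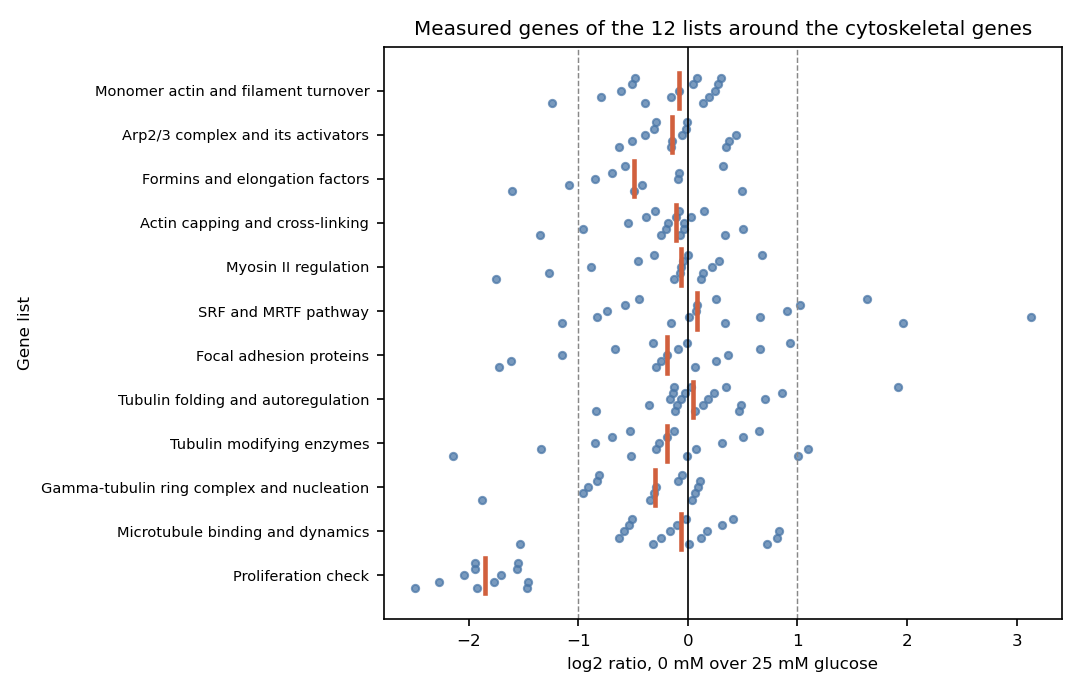
Log2 ratios, 0 mM over 25 mM glucose, of the measured genes in 12 lists, 1 point per gene, with the list's median as a thick bar and dashed lines at 2-fold. All 12 genes of the proliferation list lie left of the lower dashed line, while the medians of the other 11 lists lie between -0.49 and 0.08.

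Several of these genes serve cell division, and division genes differed between the libraries. All 12 of the proliferation genes listed as a check were lower by the 2-fold rule, with log2 ratios from -2.49 to -1.46 and a median of -1.85, led by MKI67, CCNA2 and TOP2A. Over all measured genes 6.2% were lower by the 2-fold rule. The summed alpha- and beta-tubulins had -0.84 and MYH10 -1.21. Fewer dividing cells and less of these messages in each cell cannot be told apart in a bulk library, and the part of division in the tubulin and myosin values was not tested.

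Gene length moved with the ratio over the whole table. Over 10 classes of equal size by gene model length, medians ran from 0.31 for the shortest genes to -0.21 for the longest, and 16 of the 61 measured members, mostly myosin heavy chains and unconventional myosins, lie in the class of the longest. Less the median of their own class, the alpha-tubulins, which are short, kept their direction, as did MYH9, MYH10, MYO10, ACTB and ACTG1. On that scale MYH10 (-0.99) left the 2-fold rule and TUBA1A (-1.19) came past it, MYH13 left the 1.5-fold rule, and MYL6 (-0.83), TAGLN2 (-0.64) and MYO5B (0.97) came past the 1.5-fold rule. The part of length or RNA quality in the unadjusted values was not tested.

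All 12 listed markers of a renal carcinoma line had at least 20 counts, at very different levels. PAX8 had 244.0 CPM with glucose and 231.7 without and VIM 4336 and 5791 CPM, while PAX2 had 2.41 and 1.203 CPM. CDH6, at 192.2 and 8.36 CPM, and LHX1, at 19.5 and 3.38 CPM, were lower without glucose by the 2-fold rule. EPAS1, at 134.3 and 421.6 CPM, was higher by the 2-fold rule, and KRT19, at 14.25 and 25.27 CPM, by the 1.5-fold rule. Of the 10 smooth muscle genes 7 were measured. The most abundant, SMTN, had 34.1 and 16.9 CPM and was lower by the 1.5-fold rule, while MYH11 was under 1 CPM and DES had 5 and 9 counts. Of the 12 skeletal muscle genes 7, and of the 10 cardiac genes 7, had at most 3 counts in each library, and the highest level in either library was 9.30 CPM in the skeletal and 1.24 CPM in the cardiac list. The 28 members that were not measured are mostly of that kind, the sarcomeric myosins, light chains and alpha-actinins and the tissue-restricted TUBA3C, TUBB1, TUBB4 and TUBB8, and none of them had more than 13 counts in a library.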

How the data were processed

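Gene tables of both libraries were used as deposited. Per the file headers they hold a raw count, an RPKM and the number of exons with more than 10 reads per gene model; the submitters' processing notes name hg19. No source used here names the aligner, the counting program, the strand setting, the read length or the library preparation. The deposited RPKM values were used only to check that they equal counts per kilobase and library. Groups were taken from the sample titles. Repeats of a place and both counts (528 gene models) were dropped and counts summed by symbol. Effective library sizes came from TMM (edgeR 4.0.16, R 4.3.3; factors 1.02 and 0.981), and the rest was computed in Python 3.11.15 with scipy 1.17.1, numpy 2.4.6 and pandas 2.3.3. Ratios carry exact 95% Clopper-Pearson intervals, which cover counting error only, since PCR copies are not independent molecules. On simulated Poisson counts of 14124 genes, 95.3% of the intervals held the true ratio. The simulation held counting error alone, so that it checks the computation and not the spread between cultures or PCR copies. No test could be made from single libraries.

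Every member with at least 10 CPM in either library or past the 2-fold rule is named with its values, except 1 that is counted but not reported here; of the 12 gene lists, up to 3 genes past the 2-fold rule with at least 10 CPM are named. The member rule reads symbols alone, but this group of genes and the lists were chosen with earlier results of these data known. Total counts, median of ratios, upper quartile, other count minimums, 1 CPM added, repeated models kept, length classes and library sizes without small RNA genes were tried as alternatives. Sequences are from RefSeq promoters on GRCh38.p14 and GENCODE release 29. The starts and ends of genes are those of the tables.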

Additional observations from a re-analysis of the deposited data

How the results depend on the processing

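The number of members past each rule, the median of the members and the medians of the role groups and lists were recomputed under 3 other scalings, 2 other count minimums, 1 CPM added, repeated models kept, ratios less the median of the length class, and library sizes without small RNA genes. With 1 CPM added, 1 member in place of 2 was higher by the 1.5-fold rule, and less the median of the length class the median of the capping and cross-linking list was 0.036 in place of -0.107. On that scale 4 more list medians changed sign: focal adhesion (-0.194 to 0.018), myosin II regulation (-0.065 to 0.094), microtubule binding (-0.058 to 0.016) and tubulin folding (0.046 to -0.102, and -0.010 by total counts). By raw counts in place of counts per kilobase, ACTG1 made up 49.910% of the actins with glucose and 67.763% without, TUBA1B 55.137% and 47.337% of the alpha-tubulins, and TUBB 71.299% and 67.859% of the beta-tubulins. Of single members, MYH10 (-0.99 by length class) left the 2-fold rule, TUBA4B (-1.07 with 1 CPM added) left both, and TUBA8, TUBB6 and MYH13 left the 1.5-fold rule. TUBA1A (by length class) and MYO10 (by total counts) came past the 2-fold rule, and MYO5B, MYO9B (-0.67 by total counts), MYL6 and TAGLN2 past the 1.5-fold rule. The median of all measured genes ranged from -0.048 to 0.052 over the settings. The signs of small medians were not stable: that of the gamma-, delta- and epsilon-tubulins (0.011) was below 0 under 4 settings, that of the light chains (0.246) was -0.143 and that of the class I myosins (-0.361) was 0.042 with a minimum of 1 count, and those of the muscle heavy chains (-0.299) and of the calponins and transgelins (0.340) were 0.007 and -0.064 with a minimum of 100 counts. No paired analysis was possible because there was 1 library in each group, and for the same reason no replicate could be left out. Genes with few counts, such as TUBB2B, MYH7B, MYH11 and MYH13, had intervals too wide to place a 2-fold difference. The intervals of MYH3 (-0.15 to 0.78) and MYH15 (-0.79 to 0.19) lay within 2-fold.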
